A study of Homo sapiens with 12 samples.

Results

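Doxorubicin-treated cells labelled with a heterozygous loss of the short arm of chromosome 17 (17p) were compared with doxorubicin-treated cells whose 17p was intact, over all expressed genes. The comparison used 6 of the 12 RNA-seq libraries of the study, chosen by their labels and not by any measured value. Both populations were labelled HS578T, an established triple-negative breast cancer line of mesenchymal type. The titles call the intact cells Cas9 (genotype WT) and the deleted cells 17PKO (1 copy of 17p knocked out), and the same 2 populations were also sequenced in DMSO, the vehicle. For 48 h the treated Cas9 cells received 170 nM and the treated 17PKO cells 1 µM doxorubicin, a ratio of 5.88. Genotype label and dose therefore change together between the treated libraries, and their parts cannot be told apart. Each of the 4 groups held 3 libraries, named here by population and treatment. The labels do not say whether the 17PKO cells are 1 clone, nor that a group's libraries are from separate cultures. The p-values thus take in only the scatter among these samples, which may be technical.

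Doxorubicin is an anthracycline that traps type II topoisomerases on DNA and leaves double-strand breaks. Cells answer such breaks through damage kinases that stabilise the transcription factor p53, whose targets stop the cell cycle, repair DNA or start apoptosis. Arrested cells also shut down mitotic genes through the DREAM complex and RB proteins, which act on promoter elements called CHR and CDE and on CCAAT boxes. Broken DNA and damaged mitochondria can in addition switch on inflammatory and interferon programmes.

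Library totals were 81966803 to 99142099 counts for the treated Cas9 cells and 76508178 to 92932596 for the treated 17PKO cells. At that depth 3 counts, the level that a count of 0 still allows, stood for 0.0303 to 0.0392 CPM, counts per 1000000 counts of the library. That limit covers counting error only and uses the library totals alone. The CPM of genes below also take in a scaling factor of each library (TMM). Mitochondrial genes took 3.16% to 5.54% of the counts in the Cas9 and 3.11% to 3.41% in the 17PKO libraries, and the highest share was in replicate 1 of the treated Cas9 group. Each library's deviation from its group, gene by gene, was set against transcript GC content, and the Spearman rho across genes was -0.53, 0.57 and -0.22 in the 3 treated Cas9 libraries and 0.08, -0.06 and 0.00 in the 3 treated 17PKO libraries. In the DMSO 17PKO libraries it was 0.45, -0.596 and 0.53, and replicate 2 there held 6.898% mitochondrial counts. Transcripts specific to single chromosomes were also checked, and the recorded HS578T karyotype was not matched in 12 of 12 libraries. The cells are therefore named only as their labels name them.

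The label was also checked against 17p itself. POLR2A, a 17p gene for the catalytic subunit of the polymerase that makes mRNA (ENSG00000181222.19, chr17:7484366-7514616, hg38), was at 858, 607 and 673 CPM in the Cas9 libraries and 719.6, 725 and 770.5 CPM in the 17PKO libraries. The 17PKO values lay inside the Cas9 range, and the log2 fold change was 0.05, SE 0.16 (adjusted p = 0.818) in edgeR. The 399 tested genes on 17p had a median log2 fold change of -0.04, with 93 genes higher and 99 lower and a range of -0.11 to 0.04 over the alternatives run, while 974 genes of 17q, which the label does not name as lost, had a median of -0.16. A loss of 1 of 2 copies was thus not seen as a lower level of 17p RNA between the treated libraries.

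Of the 60660 genes counted, 21803 passed the filter on low counts and were tested. Between the treated populations 10421 genes (47.8%) passed an adjusted p of 0.05, with 5655 higher (25.9%) and 4766 lower (21.9%) in the 17PKO cells. A change of at least 2-fold as well was seen for 3111 higher genes (14.3%) and 1815 lower genes (8.32%), and one of at least 4-fold for 1525 (6.99%) and 556 (2.55%). In 12448 genes (57.1%) the 3 libraries of one group all lay above the 3 of the other, and 10191 genes (46.7%) were called and did not overlap. With a stricter filter, 1 CPM in at least 3 libraries, 4360 genes were higher and 4306 lower. The excess of higher calls was thus largely gone without the genes of low counts. All fold changes below are log2 values of 17PKO over Cas9 from edgeR's quasi-likelihood fit, with their standard error (SE), and adjusted p refers to the Benjamini-Hochberg adjustment over the whole set of tested genes. Because 47.8% of all genes tested differed, counts in gene lists are read against 25.9% higher and 21.9% lower, also where these shares are not repeated. The libraries are bulk RNA scaled to their totals and TMM factors, so fewer cells of a type and less RNA per cell cannot be told apart.

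The same 2 populations in DMSO share no library with the treated ones and show which differences were there without drug. In DMSO 7618 genes (34.9%) differed, 4092 higher (18.8%) and 3526 lower (16.2%) in 17PKO cells. Of the genes that differed between treated cells 5074 differed in the same direction in DMSO, which is 48.7% of the treated calls and 66.6% of the DMSO calls. These were 2696 higher and 2378 lower genes. A further 4940 treated calls (47.4%) did not pass in DMSO, and 407 (3.91%) differed in the opposite direction, 274 of them higher with drug and lower without and 133 the reverse. Across the 21803 genes, which are not independent replicates, the treated and DMSO fold changes had a Spearman rho of 0.57 and a Pearson r of 0.60, and the median size of the change was 0.55 with and 0.42 without drug on the log2 scale. In the test of the difference itself, the treated minus the DMSO fold change, 3705 genes (17%) passed, 2235 with a more positive (10.3%) and 1470 with a more negative value (6.74%) with drug.

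**Figure D1:**
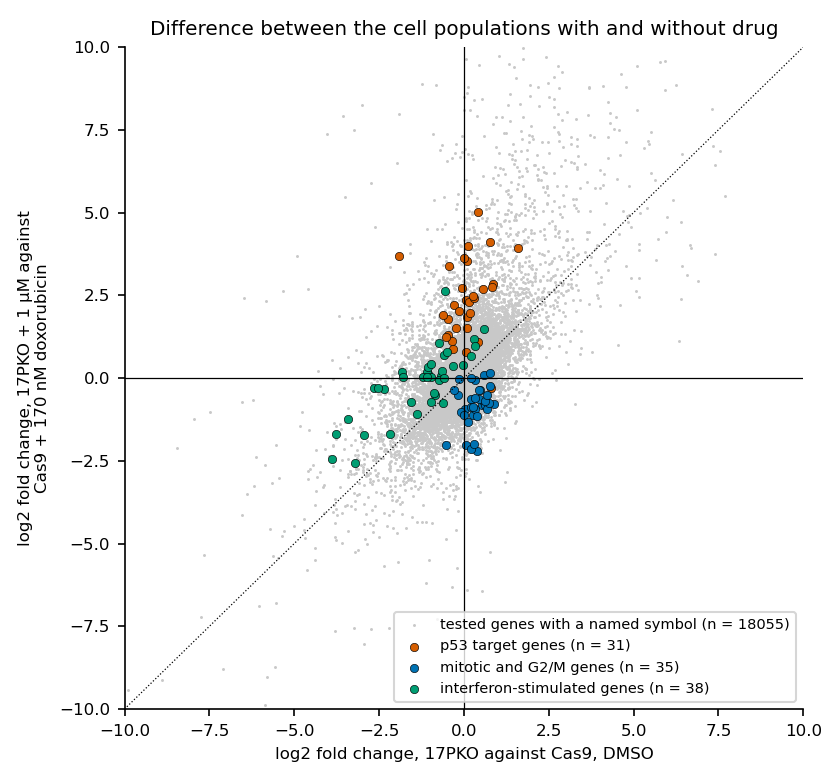
Log2 fold change of 17PKO over Cas9 cells in DMSO (horizontal axis) and in doxorubicin (vertical axis) for 18055 tested genes with a named symbol, of which 9 lie beyond the axes, with the dotted line marking equal values. Most p53 targets (orange) stand above the line and most mitotic genes (blue) below the zero of the vertical axis, while most interferon-stimulated genes (green) lie left of the zero of the horizontal axis.

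**Figure D2:**
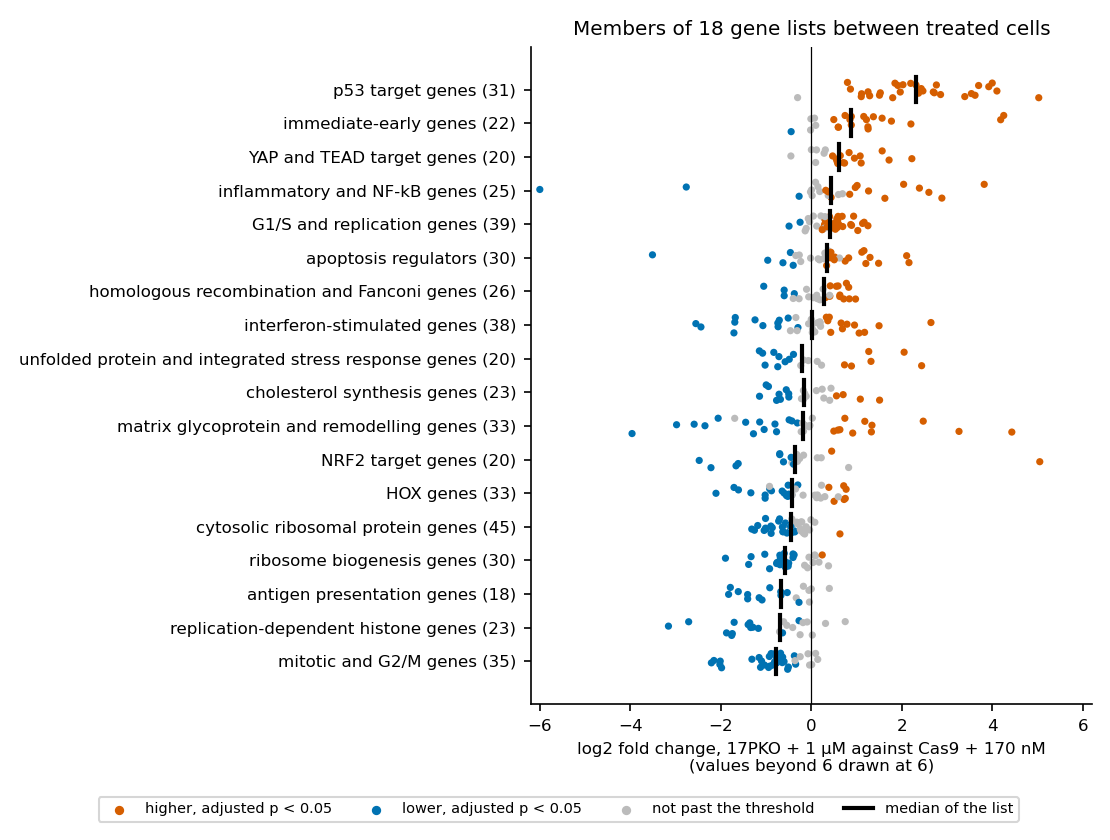
Log2 fold change of each tested member of 18 gene lists between the treated populations, one dot per gene, with the number of members in brackets and a black bar at the list's median. Orange and blue dots passed an adjusted p of 0.05, and the lists run from the p53 targets at a median of 2.31 to the mitotic genes at -0.78.

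The p53 target genes were higher in treated 17PKO cells almost without exception. Of 32 listed genes 31 were tested, and 30 were higher and 0 lower, against 25.9% and 21.9% of all genes, with a median log2 fold change of 2.31 against 0.02 over all genes tested. A change of at least 2-fold was seen in 28 members and of at least 4-fold in 18. In DMSO 6 members were higher and 5 lower, the median being 0.10, and in the test of the difference 30 of 31 had a more positive value with drug.

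The arrest genes of this list showed the contrast plainly. CDKN1A, the gene of the kinase inhibitor p21 (ENSG00000124762.14, chr6:36676460-36687339), was at 63.2, 88.5 and 79.8 CPM in the Cas9 libraries and 1297, 1115 and 1282 CPM in the 17PKO libraries. Each 17PKO value was above every Cas9 value, the means were 77.2 ± 12.9 and 1231 ± 100.8 CPM (SD, n = 3), and the fold change was 3.996, SE 0.19 (adjusted p = 2.40e-09). BTG2, an antiproliferative gene (ENSG00000159388.6, chr1:203305491-203309602), was at 15.6, 16.9 and 16.2 CPM in the Cas9 libraries and 179.8, 189.8 and 194 CPM in the 17PKO libraries, a change of 3.54, SE 0.09 (adjusted p = 2.09e-11). The groups did not overlap here either. GDF15, a stress-induced cytokine (ENSG00000130513.6, chr19:18374731-18389176), was at 3.98, 5.12 and 3.87 CPM in the Cas9 libraries and 134, 144 and 144 CPM in the 17PKO libraries, a change of 5.02, SE 0.19 (adjusted p = 3.00e-10). In DMSO these 3 genes did not pass, at 0.13, 0.10 and 0.42.

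Genes that feed back on p53 were higher too. MDM2, the ubiquitin ligase that targets p53 for degradation (ENSG00000135679.25, chr12:68808176-68850686), was at 137, 93.6 and 143 CPM in the Cas9 libraries and 2131, 2114 and 2162 CPM in the 17PKO libraries. Its change was 4.10, SE 0.16 (adjusted p = 3.36e-10), and it was among the most abundant of the genes at least 2-fold higher. MDM2 already stood higher in 17PKO cells in DMSO, at 0.76, SE 0.14, and the difference between both contrasts was 3.34, SE 0.20 (adjusted p = 1.69e-07). PPM1D, a phosphatase that dampens the damage kinases, went from 27.3 to 106 CPM, a change of 1.96, SE 0.16.

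The targets that act in repair, redox control and death rose with them. DDB2, which recognises ultraviolet lesions, went from 25.8 to 175 CPM (2.76, SE 0.10), and XPC, which acts in the same repair pathway, from 73.5 to 128 CPM (0.80, SE 0.08). SESN1, a sestrin that restrains growth signalling, was at 10.6, 9.204 and 11.995 against 65.9, 70.6 and 69.1 CPM (2.69, SE 0.12). ZMAT3, a zinc finger RNA-binding protein gene, was at 45.4, 30.3 and 46.4 against 302, 268 and 314 CPM (2.85, SE 0.16). These 4 genes were higher in all 3 17PKO libraries than in any Cas9 library. The death receptor genes FAS, TNFRSF10B and TNFRSF10A stood at 2.37, 2.31 and 1.80. BBC3, which encodes the pro-apoptotic protein PUMA, was at 2.61, 4.16 and 3.79 against 46.9, 40.3 and 42.4 CPM (3.62, SE 0.28), while BAX, the pore-forming death effector, had a smaller change of 0.86, SE 0.20. PHLDA3, an inhibitor of AKT signalling, went from 13.3 to 87.4 CPM (2.72, SE 0.31). The 1 member that did not pass was the decoy receptor gene TNFRSF10C, at -0.30 and near its detection limit, at 0.119 and 0.0951 CPM. EDA2R, a receptor gene of the same family, passed at a low level, with 0, 0.0497 and 0.0415 against 0.282, 0.586 and 0.392 CPM.

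**Figure D3:**
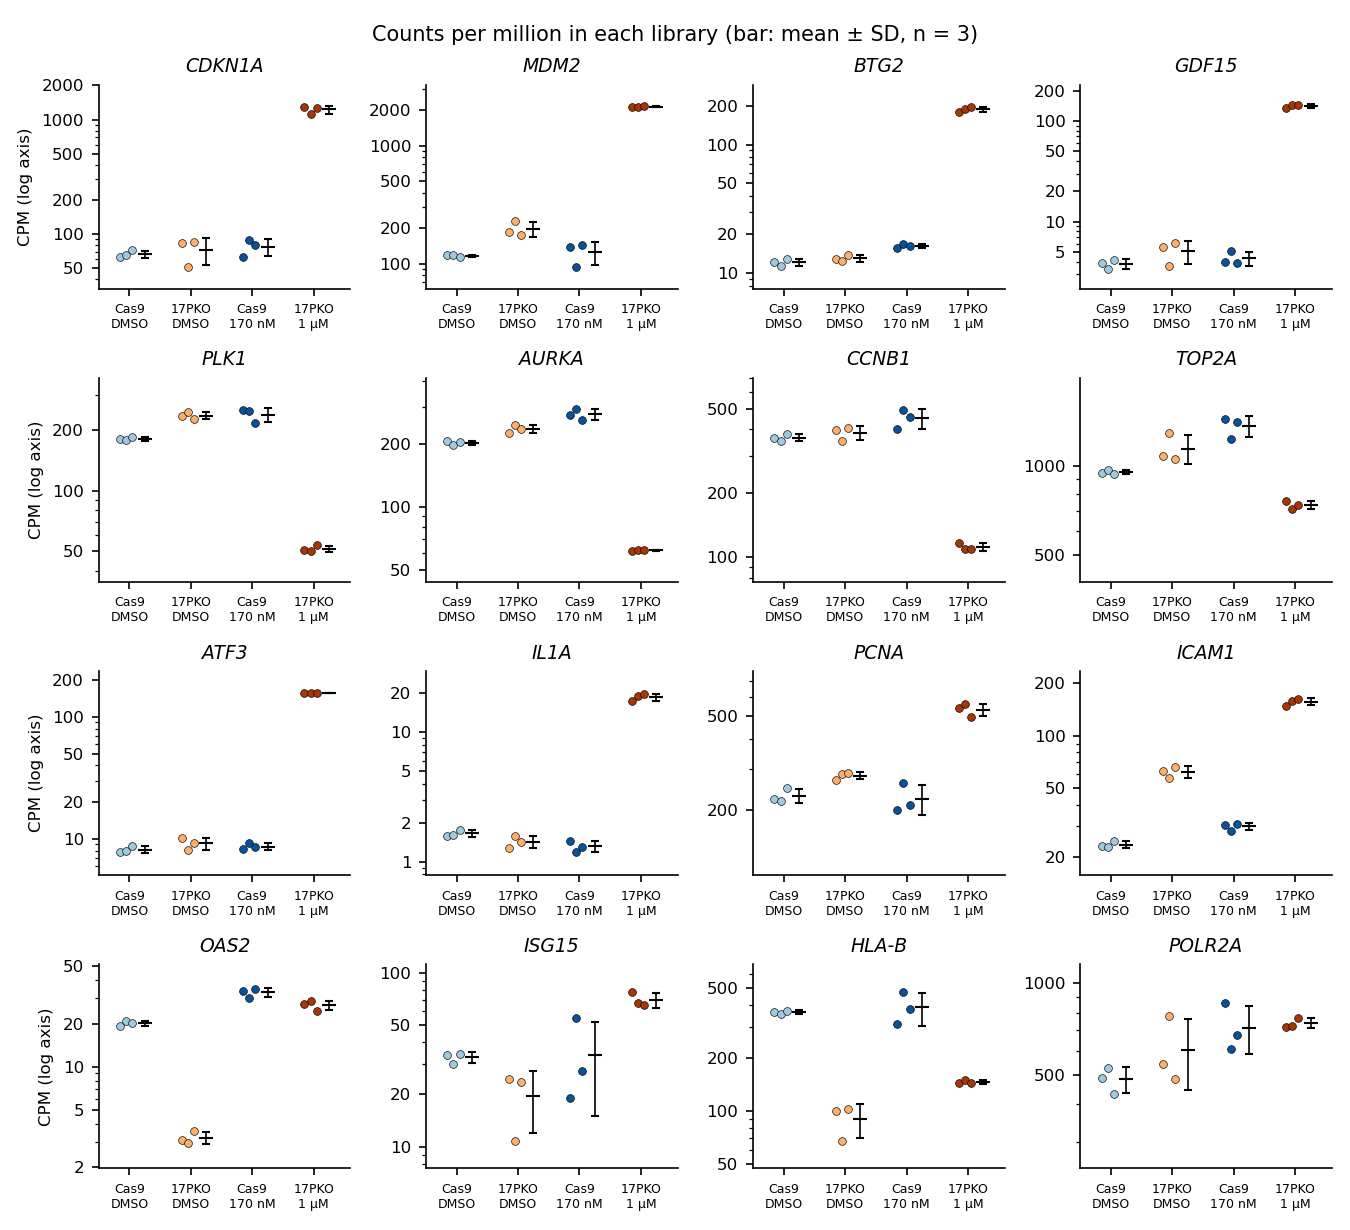
CPM in each library, on log axes, for 16 genes in the Cas9 and 17PKO populations in DMSO and in doxorubicin (170 nM for Cas9, 1 µM for 17PKO), with the mean ± SD of the 3 libraries beside the dots. The p53 targets CDKN1A, MDM2, BTG2 and GDF15 stand high and the mitotic genes PLK1, AURKA and CCNB1 low in the treated 17PKO libraries alone, while OAS2 is low in the 17PKO libraries in DMSO and POLR2A overlaps among the treated libraries.

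Mitotic and G2/M genes were lower in treated 17PKO cells. Of 35 tested members 28 were lower and 0 higher, against 21.9% and 25.9% of all genes, with a median of -0.78, and 10 of them were at least 2-fold lower. The order was the other way round in DMSO, where 19 were higher and 2 lower, the median being 0.33, and 15 members were called higher in DMSO and lower with drug. In the test of the difference 30 of 35 had a more negative value with drug, against 6.74% of all genes.

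The promoters of 2 of these genes, the pair with the lowest p among members whose window held the searched motif, show the elements through which arrest is known to act. The windows are the 250 bases before the RefSeq start of the gene on GRCh38.p14, written 5′ to 3′ on the gene's strand (chr16:23678639-23678888, plus strand for PLK1 and chr1:43358731-43358980, plus strand for CDC20). Capitals mark TTTGAA, the CHR motif, and CCAAT, the NF-Y box, on either strand, so that a minus-strand match reads TTCAAA or ATTGG.
PLK1: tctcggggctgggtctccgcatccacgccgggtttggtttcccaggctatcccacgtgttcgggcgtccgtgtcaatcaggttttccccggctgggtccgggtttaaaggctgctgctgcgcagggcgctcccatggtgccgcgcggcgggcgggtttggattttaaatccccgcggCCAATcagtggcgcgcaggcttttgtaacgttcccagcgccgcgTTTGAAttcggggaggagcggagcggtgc
CDC20: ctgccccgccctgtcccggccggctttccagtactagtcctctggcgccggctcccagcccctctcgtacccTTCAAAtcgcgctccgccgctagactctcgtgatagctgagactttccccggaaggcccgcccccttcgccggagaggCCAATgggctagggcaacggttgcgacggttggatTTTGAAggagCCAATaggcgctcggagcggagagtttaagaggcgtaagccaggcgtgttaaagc
The RefSeq start of PLK1 lies inside the gene's GENCODE 29 span. TTTGAA stood in 16 of 28 mitotic genes with a window (57.1%) and in 8.72% of the 13135 windows of all tested genes. CCAAT stood in 22 of 28 (78.6%) and in 34.7% of all windows, but also in 13 of 23 p53 target windows (56.5%) and 19 of 34 G1/S and replication windows (55.9%). A match is a description of these letters and no evidence of a bound site.

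The mitotic kinases led this group. PLK1, a kinase of spindle assembly and mitotic entry (ENSG00000166851.15, chr16:23677656-23690367), was at 251, 248 and 216 CPM in the Cas9 libraries and 50.98, 50.2 and 53.5 CPM in the 17PKO libraries. Every Cas9 library stood far above every 17PKO library, and the change was -2.21, SE 0.08 (adjusted p = 3.18e-10). AURKA, the kinase of spindle poles, was at 275, 294 and 260.1 CPM in the Cas9 libraries and 61.7, 62.5 and 62.1 CPM in the 17PKO libraries (-2.15, SE 0.08, adjusted p = 2.44e-10). In DMSO both were slightly higher in 17PKO cells, at 0.38 and 0.22.

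Cyclin and checkpoint genes followed. CCNB1, the mitotic cyclin B1, was at 399.8, 494 and 459 against 117, 109 and 109 CPM (-2.01, SE 0.10), with a DMSO value of 0.07 that did not pass. CDC20, the activator of the anaphase-promoting complex, was at 209.8, 319 and 258 against 68.5, 61.3 and 64.1 CPM (-2.02, SE 0.16), and HMMR, a spindle-associated hyaluronan receptor gene, went from 252 to 63.6 CPM (-1.98, SE 0.22). CENPF, a kinetochore gene, and TPX2, a spindle assembly factor, had smaller changes of -0.77 and -0.68. Members that did not pass included MKI67, the proliferation marker, at -0.36, SE 0.20 (adjusted p = 0.151), with 1169, 706 and 887 CPM in the Cas9 libraries, FOXM1, a mitotic transcription factor, at 0.09, and CDK1, the mitotic kinase, at -0.07. MKI67 passed without replicate 2 of the treated Cas9 group, at -0.55 (adjusted p = 0.0237), without replicate 2 of the DMSO 17PKO group and with no filter. The loss was thus uneven across the programme, with the largest changes in PLK1, AURKA, CDC20, CCNB1 and HMMR.

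TOP2A, the proliferation-linked topoisomerase that doxorubicin traps (ENSG00000131747.15, chr17:40388516-40417950), was at 1445, 1232 and 1408 CPM in the Cas9 libraries and 758, 712 and 736 CPM in the 17PKO libraries. All 17PKO values lay below all Cas9 values, with a change of -0.89, SE 0.09 (adjusted p = 4.09e-06), and in DMSO it stood slightly higher in 17PKO cells, at 0.26. TOP2B, the isoform also present in non-dividing cells, was at -0.30, SE 0.14 and did not pass.

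Genes of the G1/S transition and DNA replication went the other way. Of 39 tested members 27 were higher and 2 lower, the median being 0.40, and in DMSO 7 were higher and 6 lower. Most changes were modest, as 4 of the 27 reached 2-fold. PCNA, the sliding clamp and also a p53 target, was at 201, 261 and 209.6 against 540.2, 559.7 and 497 CPM (1.25, SE 0.11). CHAF1B, a histone chaperone subunit, went from 45.7 to 102.6 CPM (1.17, SE 0.09), E2F1, the G1/S transcription factor, from 65.4 to 143 CPM (1.13, SE 0.18), and CCNE1, cyclin E1, from 8.35 to 16.99 CPM (1.03, SE 0.12). TYMS, thymidylate synthase, stood at 0.93 and RRM1, a ribonucleotide reductase subunit, at 0.49. The 2 lower members were the origin recognition gene ORC1 at -0.49 and the helicase subunit MCM4 at -0.25, and MCM4 no longer passed with library totals as the scaling or with no filter.

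Homologous recombination and Fanconi genes were mixed, with 12 of 26 higher and 4 lower and a median of 0.29. RAD52, a recombination mediator, was at 11.5, 9.03 and 10.1 against 19.2, 21.2 and 19.8 CPM (0.98, SE 0.13), and BRCA2, which acts in the same repair route, stood at 0.71. NBN, a subunit of the break sensor MRN, was lower, at 124, 92.6 and 130.1 against 55.5, 56.4 and 55.2 CPM (-1.05, SE 0.13), as were the recombination genes RAD51B and XRCC3 and the helicase FANCM, at -0.38, -0.60 and -0.60. Without replicate 2 of the treated Cas9 group 7 members of this list were lower.

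Replication-dependent histone genes were lower in 13 of 23 tested members and higher in 0, with a median of -0.70, and 11 of these were at least 2-fold lower. Without replicate 1 of the treated 17PKO group the median was -1.14. In DMSO 1 was higher and 3 lower. H2BC12 was at 12.9, 12.3 and 10.9 against 5.05, 4.39 and 4.62 CPM (-1.36, SE 0.11), H1-2, a linker histone gene, at 18.2, 24.8 and 20.4 against 9.25, 8.34 and 8.31 CPM (-1.29, SE 0.13), and H2AC6 went from 7.42 to 0.835 CPM (-3.16, SE 0.19). These messages lack a poly(A) tail and near-identical copies share reads, and the labels do not say how RNA was selected, so their levels are uncertain. Among 12 lamina and chromatin genes tied to senescence 3 were higher and 4 lower, against 25.9% and 21.9% of all genes. LMNB1, lamin B1, was at 262, 223 and 255 against 173, 178 and 171 CPM (-0.50, SE 0.08) and HMGA1, a chromatin architecture gene, at 596, 576 and 495 against 279.99, 294 and 312 CPM (-0.91, SE 0.09), while DNMT1, the maintenance methyltransferase, stood at 0.46, its recruiter UHRF1 at 0.37 and HMGA2 at 0.79. The other lower ones were LBR, the lamin B receptor, and HMGB2, a chromatin bending protein, at -0.33 and -0.61.

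Apoptosis regulators other than the receptors above differed in both directions, with 14 of 30 higher and 5 lower and a median of 0.36. In DMSO 8 of the 14 were already higher and 4 of the 5 already lower. APAF1, the apoptosome scaffold, was at 44.8, 37.1 and 52.96 CPM in the Cas9 libraries and 199, 188 and 193 CPM in the 17PKO libraries (2.11, SE 0.12, adjusted p = 9.26e-09). BCL2L11, the pro-apoptotic BIM, went from 25.6 to 71.6 CPM (1.49, SE 0.10). Survival genes were higher as well: BCL2L1, which encodes BCL-XL, was at 127, 151 and 145 against 355, 329 and 355 CPM (1.295, SE 0.11), MCL1 stood at 0.52, CFLAR, the inhibitor of caspase-8, at 1.20 and BCL2A1 at 2.16 from a low level of 0.175 CPM. The death ligand TNFSF10, known as TRAIL, was lower, at 3.14, 1.76 and 2.41 against 0.0768, 0.282 and 0.265 CPM (-3.51, SE 0.47), and lower still in DMSO, at -6.40. CASP9, the initiator caspase of the apoptosome, stood at -0.46. The lower members also included the TNF receptors TNFRSF1A and TNFRSF21, at -0.63 and -0.96. Pro- and anti-apoptotic members were thus higher side by side.

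Immediate-early genes, the first transcripts of growth factor and stress signals, were higher in 17 of 22 members and lower in 1, with a median of 0.88, and 10 reached 2-fold. In DMSO 4 were higher and 7 lower. ATF3, a stress-induced transcription factor, was at 8.19, 9.23 and 8.52 CPM in the Cas9 libraries and 157, 157 and 157 CPM in the 17PKO libraries. The 3 treated 17PKO values differed by less than 1 CPM, the change was 4.18, SE 0.11 (adjusted p = 2.09e-11), and DMSO showed 0.17, which did not pass. EGR2, a zinc finger factor, went from 1.42 to 26.9 CPM (4.25, SE 0.23), NR4A1, an orphan nuclear receptor, from 3.19 to 14.6 CPM (2.20, SE 0.30), and DUSP1, a MAP kinase phosphatase, from 41.1 to 139.9 CPM (1.77, SE 0.08). JUN stood at 1.25. FOS, its partner in AP-1, was the lower member, at -0.45, SE 0.15 (adjusted p = 0.0279). Besides the 2-fold minimum, it no longer passed in 5 of the alternatives, which were library totals as the scaling, the replicate block and leaving out replicate 1 or 2 of the treated Cas9 or replicate 1 of the treated 17PKO group.

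Inflammatory and NF-kB genes were higher in 13 of 25 tested members and lower in 3, with a median of 0.44, whereas in DMSO 1 was higher and 13 lower with a median of -0.70. The test of the difference gave 19 of 25 a more positive value with drug. IL1A, the alarmin interleukin-1 alpha, was at 1.45, 1.19 and 1.297 CPM in the Cas9 libraries and 17.2, 18.9 and 19.5 CPM in the 17PKO libraries. No value of the groups overlapped, and the change was 3.82, SE 0.14 (adjusted p = 2.37e-10). IL1B was at 6.66, 7.56 and 5.11 against 48.3, 47.2 and 47.1 CPM (2.88, SE 0.14) and TNFAIP3, the NF-kB feedback inhibitor A20, at 28.9, 23.8 and 29.7 against 166, 163 and 169 CPM (2.60, SE 0.10). In DMSO IL1A, IL1B and TNFAIP3 did not pass, at -0.22, 0.12 and 0.03.

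ICAM1, a leukocyte adhesion receptor, was at 30.5, 28.4 and 30.9 against 148, 159 and 163 CPM (2.39, SE 0.09) and was the member already higher in DMSO, at 1.39. CXCL8, a neutrophil chemokine, was lower in 17PKO cells in DMSO (-1.52) and higher with drug, from 15.7 to 48.3 CPM (1.62, SE 0.10). CCL5, a chemokine of T cells, stayed lower in both, at 11.1, 12.9 and 9.94 against 1.68, 1.61 and 1.69 CPM (-2.76, SE 0.23) with drug and -3.65 without. The other lower members were NFKBIA, the inhibitor of NF-kB, at -0.27, a call lost with library totals as the scaling or with no filter, and VCAM1, at 0.282 CPM in Cas9 and 0 counts in the 17PKO libraries. IL6 was at 3.25, 3.68 and 2.93 against 3.15, 3.75 and 3.99 CPM, groups that overlapped. The family thus held both genes that exceeded the Cas9 level and genes that did not.

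Interferon-stimulated genes as a list did not lean to one side between the treated populations. Of 38 tested members 12 were higher and 12 lower, against 25.9% and 21.9% of all genes. The median was 0.02, close to the value over all genes. In DMSO the same list had 1 member higher and 31 lower, against 18.8% and 16.2% of all genes, with a median of -0.97. Of the members called lower in DMSO 13 did not pass with drug. In the test of the difference 25 had a more positive and 0 a more negative value with drug, against 10.3% and 6.74% of all genes.

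Promoters of 2 lower members, the pair with the lowest p among those whose window held the searched motif, are shown for the element that interferon factors bind. The motif of GAAA, any 2 bases and GAAA, the core of the interferon-stimulated response element, was searched on both strands and overlapping matches counted, and capitals mark it (chr10:89392373-89392622, plus strand for IFIT1 and chr19:17405631-17405880, minus strand for BST2, GRCh38.p14, 250 bases before the RefSeq start).
IFIT1: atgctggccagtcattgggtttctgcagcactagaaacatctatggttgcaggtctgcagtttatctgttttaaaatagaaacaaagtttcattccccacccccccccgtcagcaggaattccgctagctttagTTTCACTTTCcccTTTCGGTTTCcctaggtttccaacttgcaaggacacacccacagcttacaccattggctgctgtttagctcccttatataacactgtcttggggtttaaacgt
BST2: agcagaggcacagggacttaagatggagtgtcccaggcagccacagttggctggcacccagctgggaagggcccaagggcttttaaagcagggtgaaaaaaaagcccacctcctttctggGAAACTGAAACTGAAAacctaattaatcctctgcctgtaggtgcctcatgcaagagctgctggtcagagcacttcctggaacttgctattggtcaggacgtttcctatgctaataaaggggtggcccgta
The motif stood in 18 of 30 interferon-stimulated genes with a window (60%) and in 2.50% of the 13135 windows of all tested genes. By direction it stood in 4 of 9 higher members, 8 of 11 lower members and 6 of 10 members that did not pass.

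Among the lower members, BST2, a membrane protein that tethers virions, was at 6.405, 7.85 and 8.94 CPM in the Cas9 libraries and 1.74, 1.28 and 0.953 CPM in the 17PKO libraries (-2.55, SE 0.24, adjusted p = 1.18e-06). XAF1, an apoptosis-promoting factor encoded on 17p, was at 36.5, 26.8 and 30.5 against 4.72, 6.78 and 5.75 CPM (-2.44, SE 0.24), and IFI6, an antiviral membrane protein gene, at 80.9, 155 and 90.05 against 37.7, 31.01 and 30.8 CPM (-1.71, SE 0.21). IFIT1, which binds foreign capped RNA, was at 95.2, 89.6 and 90.9 against 43.2, 46.1 and 41.9 CPM (-1.07, SE 0.09). These 4 were lower in DMSO too, at -3.22, -3.88, -2.94 and -1.38.

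Among the higher members, TRIM22, an antiviral ubiquitin ligase, was at 4.304, 3.02 and 3.85 CPM in the Cas9 libraries and 21.1, 25.8 and 22.9 CPM in the 17PKO libraries (2.64, SE 0.20, adjusted p = 1.66e-07), although in DMSO it stood lower, at -0.57. STAT2, a subunit of the factor that switches these genes on, was at 39.9, 37.2 and 40.9 against 108, 112 and 112 CPM (1.495, SE 0.10). HERC5, the ligase that attaches the ubiquitin-like modifier, was at 0.69 against -0.60 in DMSO. ISG15, that modifier itself, was at 18.99, 54.7 and 27.2 against 77.9, 66.5 and 65.1 CPM (1.05, SE 0.33, adjusted p = 0.0177). Replicate 2 of the Cas9 group, at 54.7 CPM, lay near the 17PKO values, and the call was lost without replicate 1 or 3 of the Cas9 or replicate 1 of the 17PKO group.

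In between, OAS2, a sensor of double-stranded RNA, went from 20.1 to 3.196 CPM between Cas9 and 17PKO cells in DMSO (-2.65). With drug it was at 33.9, 30.4 and 34.6 against 27.4, 28.5 and 24.5 CPM, a change of -0.30, SE 0.10 (adjusted p = 0.0284). Besides the 2-fold minimum, that call was lost in 7 of the alternatives, 4 of them with all libraries in the fit (library totals as the scaling, no filter, the replicate block and the GC trend removed) and the rest without replicate 1 or 3 of the Cas9 or replicate 3 of the 17PKO group. MX2, an antiviral GTPase, stood at -1.82 in DMSO and at 0.19, SE 0.09 (adjusted p = 0.0906) with drug. The difference of both contrasts was 2.35, SE 0.15 for OAS2 and 2.02, SE 0.13 for MX2. The gap between the populations seen in DMSO was thus small for these genes among treated cells.

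**Figure D4:**
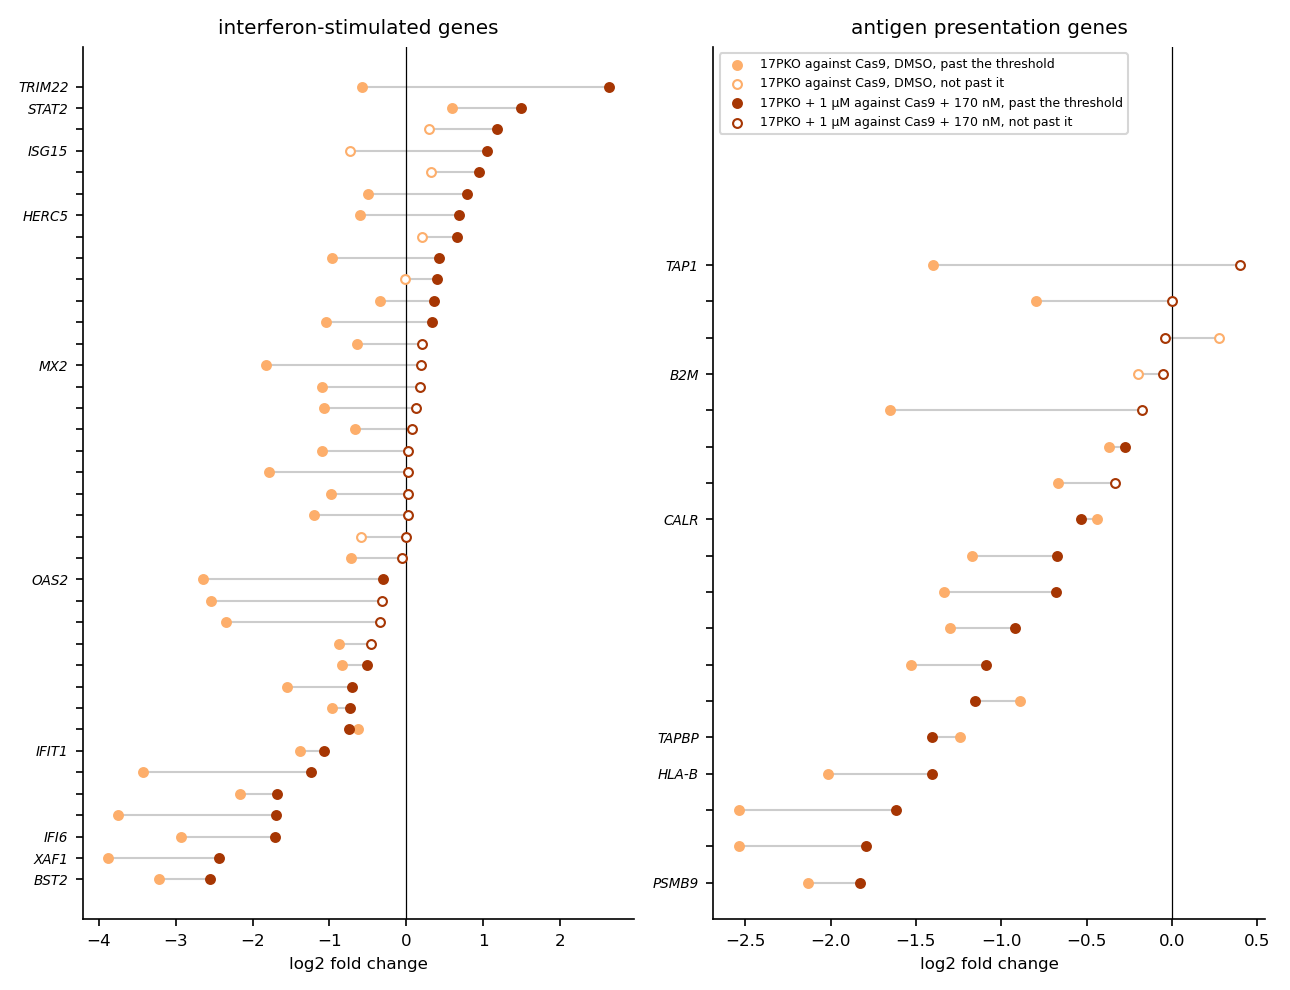
Log2 fold change of 17PKO over Cas9 cells in DMSO (light) and in doxorubicin (dark) for each tested interferon-stimulated gene (left) and antigen presentation gene (right), with filled dots past an adjusted p of 0.05 and names beside the members that the text describes. With drug the interferon-stimulated genes spread from -2.55 for BST2 to 2.64 for TRIM22, while no antigen presentation gene was called higher.

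Antigen presentation genes stayed lower in treated 17PKO cells. Of 18 members 12 were lower and 0 higher, with a median of -0.68, against 16 lower and 0 higher in DMSO with a median of -1.27. All 12 were lower in both, and 3 had a more positive value with drug in the test of the difference. PSMB9, an immunoproteasome subunit, was at 15.3, 24.3 and 16.1 CPM in the Cas9 libraries and 5.94, 5.09 and 4.65 CPM in the 17PKO libraries (-1.83, SE 0.17, adjusted p = 1.07e-06). TAPBP, tapasin of the peptide-loading complex, was at 345, 296 and 323 against 117, 115 and 131 CPM (-1.41, SE 0.09), with -1.24 in DMSO. HLA-B was at 310.2, 474 and 376 against 144, 149.95 and 143 CPM (-1.41, SE 0.16), although reads of HLA genes depend on the alleles and can be shared between them. CALR, the chaperone calreticulin, stood at -0.53. B2M, the light chain of class I molecules, was at 616, 606 and 589 against 566, 616 and 563 CPM, groups that overlapped, and did not pass. TAP1, a peptide transporter subunit, was at 0.40, SE 0.19 (adjusted p = 0.0982) and was called higher with no filter, with the GC trend removed, without replicate 2 of the DMSO 17PKO group, and without the 2 libraries of highest mitochondrial share.

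Cytosolic DNA sensing genes, which can link broken DNA to interferon, were higher in 4 of 7 tested members and lower in 1. CGAS, the DNA sensor, was at 34.95, 30.99 and 33.1 against 59.6, 59.1 and 53.5 CPM (0.80, SE 0.09), and STING1, its adaptor, at 58.1, 73.3 and 64.5 against 106, 105 and 111 CPM (0.72, SE 0.11) although lower in DMSO (-0.59). TBK1, the kinase downstream, stood at 0.51 and missed the threshold without replicate 2 or 3 of the treated 17PKO group, and IFI16, a nuclear DNA sensor, stood at 0.58. AIM2, an inflammasome sensor, was lower at 2.36, 2.397 and 1.65 against 0.793, 0.816 and 0.731 CPM (-1.45, SE 0.23), and lower still in DMSO, at -3.76. Without replicate 2 of the treated 17PKO group 2 members were higher, and without the 2 libraries of highest mitochondrial share 3 were lower.

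YAP and TEAD targets, which report cell spreading and tension, were higher in 14 of 20 members and lower in 0, with a median of 0.61, and 11 of them were higher in DMSO too. CCN2, a matricellular growth factor, was at 85.4, 69.4 and 65.2 CPM in the Cas9 libraries and 332, 342 and 351 CPM in the 17PKO libraries (2.22, SE 0.11, adjusted p = 3.06e-09). NT5E, the ectonucleotidase CD73, went from 31.4 to 103.2 CPM (1.72, SE 0.12), and NUAK2, a kinase, from 16.8 to 49.8 CPM (1.56, SE 0.10), with 0.03 in DMSO. CCN1, a relative of CCN2, stood at 0.58. Among 15 smooth muscle contractile genes 4 were higher and 4 lower, against 25.9% and 21.9% of all genes. ACTA2, smooth muscle actin and a p53 target, was at 7.598, 7.74 and 7.098 against 46.2, 41.6 and 45.7 CPM (2.57, SE 0.10), TAGLN, an actin-binding gene, stood at 1.66, CNN1, calponin, at 2.35 and CALD1, caldesmon, at 0.78. VCL, vinculin of adhesion sites, was lower, at 421, 346 and 417 against 171, 161 and 173 CPM (-1.23, SE 0.09), with TPM2, a tropomyosin, SYNPO2 and MYOCD, a smooth muscle coactivator, at -0.70, -0.87 and -2.36.

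Collagen genes differed in both directions, with 8 of 24 higher and 8 lower, against 25.9% and 21.9% of all genes. Their median was 0.09, and -0.06 with the GC trend removed or without replicate 1 of the treated Cas9 group. COL1A1, the main chain of type I collagen, was at 1813, 2049 and 1893 CPM in the Cas9 libraries and 684, 669.9 and 639 CPM in the 17PKO libraries (-1.53, SE 0.09, adjusted p = 1.46e-08). COL8A1, a short-chain collagen, was lower as well, from 16.1 to 3.03 CPM (-2.41, SE 0.12). On the other side, COL7A1, of anchoring fibrils, was at 90.7, 94.4 and 107 against 248, 389.8 and 315 CPM (1.71, SE 0.22), COL27A1, a fibrillar collagen of cartilage, at 28.6, 25.4 and 29.1 against 65.3, 81.4 and 76.5 CPM (1.43, SE 0.11), and COL6A1 stood at 0.85. COL7A1 and COL27A1 were lower in DMSO, at -1.52 and -1.53, and so changed order with drug.

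Matrix glycoproteins and remodelling enzymes had 11 of 33 tested members higher and 14 lower, against 25.9% and 21.9% of all genes. Their median was -0.19. MMP2, gelatinase A (ENSG00000087245.13, chr16:55389700-55506691), was at 29.8, 27.6 and 28.6 CPM in the Cas9 libraries and 1.97, 1.95 and 1.60 CPM in the 17PKO libraries (-3.96, SE 0.15, adjusted p = 2.75e-10). NID2, a basement membrane linker, was at 80.9, 80.03 and 82.9 against 10.7, 9.47 and 10.7 CPM (-2.98, SE 0.10), and TNC, tenascin C, at 432, 399 and 473 against 71.4, 71.3 and 73.9 CPM (-2.59, SE 0.11). All 3 were also lower in DMSO, at -3.20, -3.41 and -1.84. LOXL2, a collagen crosslinking enzyme, SPARC and FN1, fibronectin, stood at -1.45, -1.14 and -0.49. THBS2, thrombospondin 2, was higher at 5.22, 5.65 and 4.94 against 27.998, 30.6 and 29.1 CPM (2.47, SE 0.10).

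Of 9 tested transcription factors of epithelial-mesenchymal transition 3 were higher and 5 lower. SNAI2, known as SLUG, was at 20.9, 14.4 and 16.8 against 49.6, 63.3 and 55.2 CPM (1.69, SE 0.20), while TWIST2 was at 12.98, 19.5 and 12.5 against 6.65, 5.87 and 6.77 CPM (-1.22, SE 0.17) and ZEB1 stood at -0.62. FOXC1 and FOXC2 were the other higher members, at 0.94 and 0.72, and SNAI1, TWIST1 and TCF4 the other lower ones, at -0.89, -0.30 and -0.34. The lower count was 3 with library totals, with the replicate block, and without replicate 1 of the DMSO Cas9, replicate 1 of the treated Cas9 or replicate 1 or 2 of the treated 17PKO group.

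Cadherins and desmosomal genes had 8 of 26 tested members higher and 9 lower, against 25.9% and 21.9% of all genes. CDH2, N-cadherin, was at 407, 288 and 373 CPM in the Cas9 libraries and 167, 172 and 175 CPM in the 17PKO libraries (-1.06, SE 0.14, adjusted p = 2.93e-05), with -0.11 in DMSO. CDH11, a mesenchymal cadherin, was at 12.02, 8.56 and 10.9 against 0, 0.0418 and 0.0212 CPM, and CDH6 at 10.0, 8.15 and 9.63 against 0.102, 0.167 and 0.212 CPM, so both were close to 0 in every treated 17PKO library. DSC3, a desmosomal cadherin of stratified epithelium, had the reverse pattern, at 0.182, 0.124 and 0.187 against 33.3, 37.4 and 32.9 CPM. DSP, desmoplakin, was at 103.4, 71.1 and 88.4 against 228, 255 and 239 CPM (1.46, SE 0.15). In DMSO the change of DSC3 was already 4.29, at 0.0694 to 1.49 CPM in Cas9 and 17PKO cells. The DMSO values of this list reached -7.10 on the lower side. Of its 9 lower members 6 were lower in DMSO too, and of its 8 higher members 3 were higher there.

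Receptor tyrosine kinase genes had 14 of 33 tested members higher and 7 lower, against 25.9% and 21.9% of all genes. Their median was 0.20, and without the 2 libraries of highest mitochondrial share 11 were lower. IGF1R, the IGF receptor, was at 47.1, 41.1 and 49.8 against 158, 148 and 162 CPM (1.76, SE 0.09), and MERTK, a receptor of dying-cell clearance, at 7.36, 6.72 and 6.38 against 27.5, 31.0 and 30.5 CPM (2.12, SE 0.14). EGFR was higher by about the same amount with (0.69) and without drug (0.71). ROR2, a WNT5A receptor, was lower in both (-1.58 and -1.72). HOX genes, which mark body position, had 6 of 33 higher and 16 lower with a median of -0.42, HOXA13 being at -1.71 and HOXB9 at 0.71.

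Targets of NRF2, the factor that answers oxidants, had 2 of 20 tested members higher and 9 lower, with a median of -0.36 and the same counts in DMSO. NQO1, a quinone reductase, was at 192, 242 and 219.6 CPM in the Cas9 libraries and 47.7, 47.9 and 44.8 CPM in the 17PKO libraries (-2.22, SE 0.10, adjusted p = 1.59e-09), and in DMSO it stood at -2.26. GCLM, a subunit of glutathione synthesis, was at 112, 93.3 and 116 against 34.7, 36.1 and 34.1 CPM (-1.62, SE 0.11), and FTH1, ferritin heavy chain, at 2475, 3311 and 2303 against 834, 905 and 811 CPM (-1.67, SE 0.12). AKR1B10, an aldo-keto reductase, was the clear exception, at 0.207, 0.298 and 0.415 against 10.2, 10.3 and 10.5 CPM (5.05, SE 0.33), and GCLC, the catalytic partner of GCLM, stood at 0.45. Without replicate 1 of the treated Cas9 group, without replicate 2 of the DMSO 17PKO group, or without both, 14 of the list were lower.

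Among 21 tested genes of anthracycline transport and metabolism 4 were higher and 7 lower, and with library totals 5 were higher and 5 lower. Their median was -0.06, and 0.03 with library totals. ABCG2, a drug efflux pump, was at 13.02, 11.3 and 13.2 against 4.58, 5.25 and 4.03 CPM (-1.44, SE 0.14), and AKR1B1, an aldose reductase, at 177, 322 and 245 against 109, 80.7 and 95.3 CPM (-1.38, SE 0.21), both with like values in DMSO, -1.78 and -1.58. XDH, xanthine dehydrogenase, was higher at 2.84, 3.35 and 3.55 against 25.5, 25.3 and 25.6 CPM (2.97, SE 0.12) and stood at -0.01 in DMSO. ABCC5, an efflux pump, SLC28A3, a nucleoside carrier, and CBR3, a carbonyl reductase, were the other higher ones, at 0.53, 1.28 and 0.48. The efflux pump gene ABCB1 was not tested, with 10 counts over the 6 treated libraries.

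Stress of the endoplasmic reticulum gave a mixed picture, with 6 of 20 genes of the unfolded protein and integrated stress response higher and 9 lower. ERN1, the sensor kinase IRE1, was at 13.7, 10.99 and 13.1 against 70.3, 66.2 and 68.1 CPM (2.44, SE 0.12), and DDIT3, the death-linked factor CHOP, at 8.08, 9.09 and 6.11 against 32.9, 31.9 and 31.5 CPM (2.05, SE 0.13). The chaperone HSPA5 stood at -0.58, ATF4 at -0.49 and DDIT4 at -1.02. Cholesterol synthesis genes had 4 of 23 higher and 9 lower: SQLE, squalene epoxidase, stood at -1.15, while HSD17B7 was at 8.66, 8.99 and 8.799 against 25.6, 25.95 and 23.6 CPM (1.51, SE 0.11) and PMVK, IDI1 and LSS stood at 0.70, 1.08 and 0.55. Leaving out replicate 1 of the treated Cas9 group, or replicate 1 or 3 of the treated 17PKO group, left 2 higher cholesterol genes.

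Genes for making ribosomes were lower in treated 17PKO cells. Of 45 cytosolic ribosomal protein genes 26 were lower and 1 higher, with a median of -0.44, and of 30 ribosome biogenesis genes 21 were lower and 1 higher, with a median of -0.58. In DMSO these lists had 17 and 12 lower. RPL24 was at 381, 500.4 and 325 against 158, 166 and 159 CPM (-1.32, SE 0.13) and RPS18 stood at -1.26, whereas RPS6 was the higher one, at 1115, 1368 and 1044 against 1869, 1859 and 1735 CPM (0.63, SE 0.10). NIP7, a 60S assembly factor, was at 75.7, 73.1 and 79.99 CPM in the Cas9 libraries and 19.9, 20.4 and 20.96 CPM in the 17PKO libraries (-1.90, SE 0.08, adjusted p = 9.39e-10), PES1, of the PeBoW complex, at 139, 168 and 149.7 against 59.2, 57.02 and 58.7 CPM (-1.39, SE 0.09), and NPM1, nucleophosmin, at -0.70. The higher biogenesis gene was POLR1E, an RNA polymerase I subunit, at 0.24, SE 0.09 (adjusted p = 0.0383), a call lost in most alternatives. Ribosomal protein genes have many processed pseudogenes that can share their reads, so single members are uncertain.

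RNA polymerase II subunits had 2 of 12 higher and 4 lower, with POLR2H at 43.2, 62.6 and 48.8 against 112, 117 and 106 CPM (1.12, SE 0.13) and POLR2C at 79.2, 107 and 95.9 against 63.2, 56.9 and 59.6 CPM (-0.65, SE 0.13). POLR2D stood at 0.46, and POLR2B, POLR2F and POLR2K at -0.21, -0.58 and -0.33. Without replicate 2 of the treated 17PKO group 2 subunits were lower. Of 13 mitochondrially encoded mRNAs 2 were lower and 0 higher, with a median of -0.42 against 0.77 in DMSO. That DMSO median includes replicate 2 of the 17PKO group, with 6.898% mitochondrial counts against 2.68% and 3.34% in the other two. In edgeR's test of the difference 0 of 13 passed after adjustment and 8 had an unadjusted p under 0.05, and DESeq2 and limma also called 0. MT-CYB was at 4127, 2441 and 2206 against 1494, 1305 and 1592 CPM (-0.999, SE 0.33, adjusted p = 0.0233), MT-ND6 stood at -0.80, and MT-CO1 at 10133, 7788 and 5970.3 against 6109, 6591 and 6749.8 CPM, groups that overlapped. Replicate 1 of the treated Cas9 group, with 5.54% mitochondrial counts, was the highest for both, and without it MT-CYB did not pass (-0.71, adjusted p = 0.0874), 1 member of the list was lower and its median was -0.12. With no filter 9 were lower, without replicate 2 of the DMSO 17PKO group 6, and without replicate 2 of the treated 17PKO group 1. Nuclear genes of the respiratory chain had 2 of 33 higher, SDHA at 0.50 and COX5B at 0.41, and 9 lower, among them ATP5MC1, an ATP synthase subunit, at 58.9, 105 and 65.3 against 27.9, 22.3 and 24.3 CPM (-1.62, SE 0.20), and the lower count was 5 with library totals and 14 without the 2 libraries of highest mitochondrial share.

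Outside these lists, the largest increases among genes with at least 0.5 CPM in the lower and 5 CPM in the higher group were led by NECTIN4, a cell adhesion molecule of epithelia. NECTIN4 (ENSG00000143217.9, chr1:161070995-161089599) was at 0.752, 1.43 and 0.955 CPM in the Cas9 libraries and 115, 110.3 and 111 CPM in the 17PKO libraries (6.74, SE 0.21, adjusted p = 7.35e-11). CYFIP2, an actin regulator, was at 2.18, 2.76 and 2.15 against 129, 129.6 and 139 CPM (5.81, SE 0.16), and ACER2, an alkaline ceramidase, at 2.15, 1.17 and 1.64 against 95.01, 80.9 and 92.7 CPM (5.76, SE 0.19). All 3 were higher in DMSO too, at 2.15, 2.74 and 2.33, and the difference between the contrasts passed for each, at 4.60, 3.07 and 3.43.

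The next were the long noncoding RNA PURPL at 5.19, INPP5D, a phosphoinositide phosphatase known from blood cells, at 5.05, ABCA12, a lipid transporter of keratinocytes, at 4.99, AREG, the EGF receptor ligand amphiregulin, at 4.92, the hemicentin HMCN2 at 4.78 and UNC13A, a synaptic vesicle priming gene, at 4.51. PURPL was at 1.52, 0.832 and 0.747 against 32.6, 40.6 and 39.2 CPM. AREG was at 2.204, 2.15 and 1.97 against 63.8, 67.5 and 59.6 CPM. PURPL, HMCN2 and UNC13A did not pass in DMSO, at 0.36, 0.40 and 0.10, while INPP5D, ABCA12 and AREG were higher there.

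The largest decreases were mostly genes already low in 17PKO cells without drug. CAMK4, a calcium-dependent kinase (ENSG00000152495.11, chr5:111223653-111494886), was at 32.2, 21.2 and 31.9 CPM in the Cas9 libraries and 0.704, 0.795 and 0.487 CPM in the 17PKO libraries (-5.42, SE 0.26, adjusted p = 2.40e-09), and in DMSO it stood at -5.48. TENM2, a teneurin adhesion receptor, was at 33.7, 26.3 and 30.1 against 0.717, 0.774 and 0.847 CPM (-5.26, SE 0.20), CDK15, a little-studied kinase, at 28.1, 21.1 and 26.2 against 0.6398, 0.6695 and 0.7204 CPM (-5.21, SE 0.18), and BICC1, an RNA-binding protein gene, at 16.9, 11.2 and 14.9 against 0.358, 0.607 and 0.561 CPM (-4.80, SE 0.27). OLFML2B, SH3BGRL and the matrix gene FRAS1 stood at -4.12, -4.06 and -3.86, and RNVU1-27, a variant U1 snRNA gene with near-identical copies, at -4.12. CXCL12, a chemokine of stromal cells, was at 9.85, 9.74 and 10.5 against 0.614, 0.753 and 0.7204 CPM (-3.84, SE 0.14). In DMSO TENM2, CDK15, BICC1, OLFML2B, SH3BGRL, FRAS1 and CXCL12 were lower as well, from -2.62 for FRAS1 to -4.40 for CXCL12.

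Some genes were found in 1 of the treated populations and at or near the detection limit in the other. Of the called genes 505 were below 0.1 CPM in every treated Cas9 library and 154 below 0.1 CPM in every treated 17PKO library. No fold change is given for these. They passed the filter on low counts only through libraries of other groups, so these counts depend on that filter. How many of all tested genes lay below 0.1 CPM in each group was not counted, so 505 and 154 are not compared. Genes with at least 10 counts numbered 19578, 19703 and 19617 in the treated Cas9 libraries. In the treated 17PKO libraries they numbered 20207, 21863 and 20875. PRXL2A, a redox protein gene, was at 0.0519, 0.0497 and 0 CPM in the Cas9 libraries and 8.38, 10.2 and 8.99 CPM in the 17PKO libraries. NSG1, of neuronal endosomes, was at 0.0778, 0.0497 and 0.0208 against 8.45, 7.68 and 8.67 CPM, and LCE1F, of the cornified envelope of skin, at 0.0778, 0.0745 and 0.0311 against 6.97, 7.16 and 6.99 CPM. The noncoding RNA FLJ36000 was at 0.0519, 0 and 0.0311 against 18.98, 20.4 and 21.1 CPM, and IGHG1, an immunoglobulin constant region gene, at 0, 0 and 0.0104 against 5.73, 6.79 and 6.03 CPM. Going the other way, PLCXD3, a phospholipase-like gene, was at 15.2, 8.87 and 15.6 against 0.0512, 0 and 0.0424 CPM, KLHL4 at 6.74, 5.999 and 7.56 against 0.0768, 0.0418 and 0.0636 CPM, NTNG1, a netrin relative, at 5.17, 4.17 and 4.62 against 0, 0.0209 and 0 CPM, and TDO2, tryptophan dioxygenase, at 2.204, 2.68 and 2.41 against 0.0768, 0.0628 and 0.0212 CPM. PRXL2A was at 0.0203 to 4.22 CPM in DMSO in Cas9 and 17PKO cells, so it also separated them without drug, while NSG1 was at 0.1498 to 0.341 CPM. PRAME, the tested member of 25 cancer-testis genes with a row in the table, stayed below 1 CPM, at 0.00692 and 0.168 CPM, and its call was lost without replicate 1 or 2 of the treated Cas9 or replicate 2 of the treated 17PKO group and without the 2 libraries of highest mitochondrial share. It was not tested under a stricter filter or with only the treated libraries in the fit.

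Among the most abundant messages, SPTAN1, a spectrin of the cell cortex, was at 693, 611 and 662 CPM in the Cas9 libraries and 1259, 1379 and 1297 CPM in the 17PKO libraries (1.00, SE 0.10, adjusted p = 1.55e-06), FLNC, a filamin of actin crosslinks, at 354, 419.6 and 465 against 882, 831 and 922 CPM (1.09, SE 0.18), and PSIP1, a chromatin tether of splicing and repair factors, at 413, 279.9 and 304 against 768, 921 and 800.2 CPM (1.32, SE 0.23). SPTAN1 and PSIP1 were higher in DMSO as well, at 1.17 and 1.98, and FLNC stood at 0.01. On the lower side, HSPA8, the constitutive HSP70 chaperone, was at 2718, 2584 and 2393 against 1067, 1126 and 1087 CPM (-1.23, SE 0.11) and stood at -0.01 in DMSO. LDHA, lactate dehydrogenase, was at 1504, 1467 and 1496 against 649.6, 635 and 639 CPM (-1.22, SE 0.07), and VIM, vimentin of mesenchymal filaments, at 2182, 2237 and 1915 against 995, 1032 and 989.6 CPM (-1.07, SE 0.09).

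The treated difference was present with drug and near 0 without it for a set led by BTG2 and ATF3. The set also holds TNFAIP3, XDH and CCNB1, and all of these are given above. The others of lowest p in that class, each within 0.2 of 0 in DMSO, were MR1, which presents vitamin metabolites to T cells, at 17.97, 19.2 and 21.2 against 141, 138 and 153 CPM (2.89, SE 0.10), and, lower with drug, KPNA2, an importin, at 736, 871 and 771 against 269.7, 247 and 251 CPM (-1.63, SE 0.08), CDCA2, a mitotic phosphatase subunit (-1.41), PRR11, a cell cycle gene (-1.49), and EPHB1, an ephrin receptor (-1.67). In the test of the difference these stood at 2.89, -1.64, -1.21, -1.35 and -1.67. Passing that test was part of how the class was chosen, so it is no separate result.

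Other genes separated the populations with and without drug, by values within 0.2 of each other. GLUL, glutamine synthetase, was at 7.88, 6.66 and 6.496 CPM in the Cas9 libraries and 55.6, 55.9 and 55.8 CPM in the 17PKO libraries (2.99, SE 0.10, adjusted p = 1.28e-10), and in DMSO its change was 3.14, SE 0.10. HIP1, an endocytic adaptor, stood at 1.43 with and 1.42 without drug, and SIM2, a transcription factor encoded on chromosome 21, at 2.80 and 2.71. CABLES2 stood at 1.55 and 1.42, and WWC3 at 1.35 and 1.41. On the lower side SHISAL1, encoded on chromosome 22, stood at -2.22 and -2.18, SSTR2, a somatostatin receptor, at -4.59 and -4.71, and TBC1D25, a RAB GTPase-activating protein gene, at -2.95 and -2.90. GLUL, HIP1, SIM2, CABLES2, WWC3, SHISAL1, SSTR2 and TBC1D25 were chosen for a difference between the contrasts within 0.2 of 0 that did not pass. This is thus no separate result.

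A smaller class changed order between DMSO and drug. Opposite calls in both contrasts were how its genes were chosen, so the change of order is no separate result. FAM13C was at 1.21, 0.8198 and 1.37 CPM in the Cas9 libraries and 19.2, 17.1 and 20.1 CPM in the 17PKO libraries (4.05, SE 0.21, adjusted p = 4.48e-09), and in DMSO it stood at -1.59. RASSF4, a RAS-association domain gene, was at 6.79, 5.23 and 5.83 against 43.7, 50.2 and 50.8 CPM (3.02, SE 0.14) with drug and -1.18 in DMSO, and RNF144B, a ubiquitin ligase, at 28.1, 22.4 and 27.5 against 114, 117 and 118 CPM (2.16, SE 0.10) and -0.46. In the other direction the kinetochore gene KNSTRN was at 119.98, 128 and 122 against 53.6, 52.7 and 55.7 CPM (-1.19, SE 0.08) with drug and 0.34 in DMSO, CDC20P1, a pseudogene that can share reads with CDC20, stood at -1.52 and 0.31, and TBL1X, of a corepressor complex, at 71.9, 61.4 and 73.1 against 33.4, 30.03 and 34.8 CPM (-1.07, SE 0.09) and 0.26.

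Markers of cell identity differed as well. Of 8 mesenchymal markers 6 were lower and 1 higher in treated 17PKO cells, and their summed level was 7617 to 7826 CPM in the Cas9 and 4538 to 4675 CPM in the 17PKO libraries. The higher one was AXL, a receptor kinase, at 629, 694 and 706 against 1095, 1001 and 1062 CPM, and COL1A2, the partner chain of COL1A1, was below 1 CPM in both. Basal epithelial markers had 6 of 7 tested members higher and 0 lower, with a sum of 27.97 to 30.4 CPM and 59.7 to 61.7 CPM. KRT15 was at 2.66, 3.54 and 2.32 against 15.1, 17.2 and 16.7 CPM (2.53, SE 0.18), KRT17 at 0.363, 0.422 and 0.457 against 10.2, 9.802 and 9.82 CPM (4.58, SE 0.22), and KRT5 stayed below 1 CPM, at 0, 0.0497 and 0.0208 against 0.832, 0.680 and 0.593 CPM. KRT15 stood at -1.76 in DMSO. The mesenchymal sum was lower in 17PKO cells in DMSO too, at 8774 to 9242 CPM in Cas9 and 6451 to 6882 CPM in 17PKO libraries. The basal sum had the other order there, at 28.6 to 29.3 CPM in Cas9 and 19.8 to 26.4 CPM in 17PKO libraries.

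Markers of most other cell types were low. Summed blood markers reached at most 1.12 CPM in the Cas9 and 0.95 CPM in the 17PKO libraries, endothelial ones 1.65 and 2.85 CPM and intestinal ones 0.19 and 0.93 CPM, and no single marker of these 3 types had a mean of 1 CPM in a treated group. Melanocyte and neural crest markers summed to 28.9 to 42.8 CPM in the Cas9 and 56.9 to 60.8 CPM in the 17PKO libraries, groups that did not overlap. Only 2 of their 8 genes were tested and both were higher: MITF, a transcription factor, went from 35.1 to 54.8 CPM (0.64, SE 0.16) and the pigment protein gene PMEL from 1.65 to 3.47 CPM (1.07, SE 0.21). Skeletal muscle markers summed to 7.02 to 8.09 and 4.696 to 5.31 CPM and neural ones to 3.71 to 4.91 and 4.53 to 4.88 CPM, each with 2 genes at a mean over 1 CPM. Luminal markers summed to 405 to 583 and 572 to 576 CPM, mainly from KRT8 and KRT18, with the defining genes EPCAM and CDH1 below 1 CPM. Of the 8 luminal markers, all tested, 0 were higher and 2 lower, against 25.9% and 21.9% of all genes. RUNX2, a bone transcription factor, was at 38.5, 26.7 and 31.4 against 5.02, 4.38 and 4.62 CPM (-2.79, SE 0.17), and among bone and cartilage markers 1 of 4 tested was higher and 3 lower. The part of cell identity in the results above was not tested.

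Whole chromosomes stood apart in the same way with and without drug. Of 230 tested genes of chromosome 21 118 were higher (51.3%) and 11 lower (4.78%), with a median log2 fold change of 0.53 between treated cells and 0.60 in DMSO. Chromosome 22 had 91 of 539 higher (16.9%) and 190 lower (35.3%), with medians of -0.29 and -0.45, and chromosome 20 had medians of 0.28 and 0.23. The share of higher genes over all chromosomes was 25.9%. On 17p the share was 23.3% higher and 24.8% lower, close to that of all genes. The direction of the medians of chromosomes 20, 21 and 22 was kept in every alternative run.

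**Figure D5:**
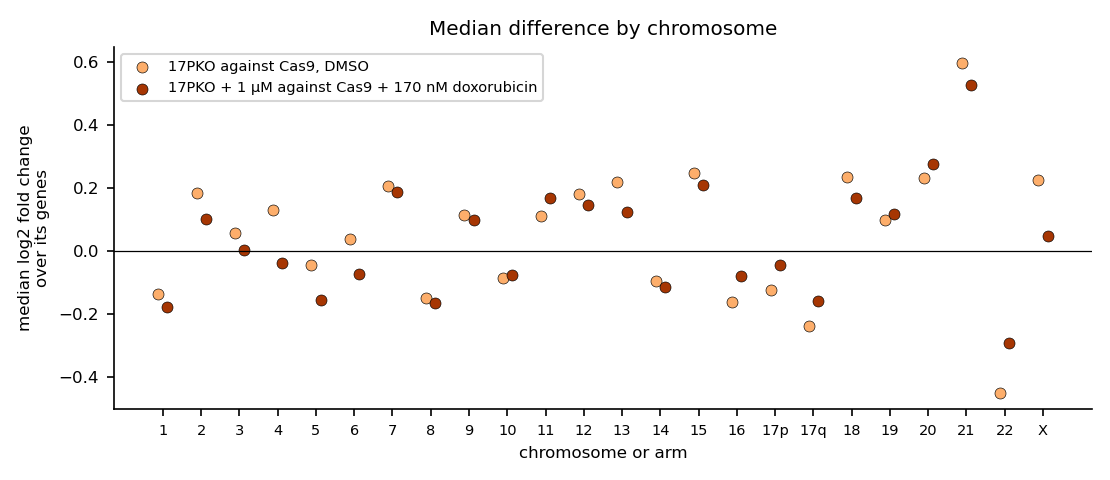
Median log2 fold change of 17PKO over Cas9 cells over the tested genes of each chromosome or arm, in DMSO (light) and in doxorubicin (dark). Chromosome 21 is highest, at 0.60 and 0.53, and chromosome 22 lowest, at -0.45 and -0.29, while 17p lies at -0.12 and -0.04.

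By kind of gene, snRNA and snoRNA genes had the lowest medians among kinds with at least 40 tested genes: 25 of 50 snRNA genes were lower and 1 higher with a median of -1.43, and 40 of 97 snoRNA genes were lower and 0 higher with a median of -0.99. Their DMSO medians were -0.93 and -0.66. Such genes lie in introns or in near-identical copies, and their counts depend on the RNA kit. Sense-intronic transcripts had a median of 0.45 with drug and -0.08 without, with 69 of 328 higher and 21 lower, while 14540 protein-coding genes had a median of 0.02. Protein-coding genes in the longest of 10 classes of gene length, spans of 165949 bases and more, had a median of -0.01 with drug and 0.16 without, with 447 of 1454 higher and 489 lower. In the shortest class, up to 5342 bases, the medians were -0.15 and -0.15. The class medians with drug moved when single Cas9 libraries were left out. Without replicate 2 of the treated Cas9 group they were -0.04 in the shortest and -0.13 in the longest class. Without replicate 1 of that group the shortest class stood at -0.26, and without replicate 3 the longest at 0.006.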

How the data were processed

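RNA from 12 libraries in 4 groups of 3 was sequenced with the KAPA RNA Hyper Prep Kit, per the labels' protocols. STAR 2.7.9a, featureCounts of Subread 2.0.1 and hg38 are named per the submitters' processing notes. For annotation release, strand setting and RNA selection the entry is: not given in the sources used here. Gene IDs were placed with GENCODE 29. The values are raw read counts per gene, as deposited, and each column was matched to its sample by name. From them genes were filtered by expression, scaled by TMM and fitted over all 4 groups with edgeR 4.0.16 in R 4.3.3 (quasi-likelihood test, two-sided, Benjamini-Hochberg adjustment over 21803 genes, threshold 0.05), with the treated contrast, the DMSO contrast and their difference. CPM of genes are counts per 1000000 of the library total multiplied by that library's TMM factor. SE is the fold change divided by the root of its F statistic. Alternatives used limma 3.58.1, DESeq2 1.42.0, other scalings and filters, a GC correction, a replicate block and the omission of each library. The fit was tested on simulated data in which few genes changed. That setting differs from these data, where 47.8% of genes were called, so it does not test the scaling here. Genes were named by rules on size, level, p and list, and further list members were picked as examples after their values were seen. Members and lists were chosen with earlier results of these data known. Promoter windows are from RefSeq, GRCh38.p14. No replicate pair agreed within sampling noise. Some results are not reported here.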

Additional observations from a re-analysis of the deposited data

Results flagged for a closer look

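The difference between the populations was not the same with and without drug for 3705 genes, by edgeR's test of the treated minus the DMSO log2 fold change. The values that follow are those differences on the log2 scale. Each rests on cells given unequal doses, so dose and genotype label cannot be told apart in it. Many of the genes named were picked by rules on these same contrasts. Some were picked for passing this test and some for opposite calls with and without drug, so their values here are no separate result.

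The difference was positive for CDKN1A (3.87), MDM2 (3.34), BTG2 (3.44), GDF15 (4.60), TNFRSF10A (2.25), ATF3 (4.01), TNFAIP3 (2.56), MR1 (2.89) and XDH (2.98). FAM13C, RASSF4 and RNF144B, which changed order between DMSO and drug, had 5.64, 4.20 and 2.62.

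It was negative for PLK1 (-2.59), AURKA (-2.37), CCNB1 (-2.09), TOP2A (-1.15), KNSTRN (-1.53), KPNA2 (-1.64), PRR11 (-1.35) and CDCA2 (-1.21). CDC20P1, EPHB1 and TBL1X had -1.84, -1.67 and -1.33.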

How the results depend on the processing

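The counts over all genes stayed within 1.5 times under every alternative but a minimum change of 2-fold, which left 4926 genes between treated cells (3111 higher and 1815 lower), 2651 in DMSO, 1984 in the difference, 1662 in the same direction in both and 79 in opposite directions. Leaving out each library gave 9045 to 11749 treated calls. Library totals as the scaling moved the median of all genes to 0.10 and gave 6280 higher and 4043 lower genes. An alternative chosen after seeing the data, leaving out the 2 libraries of highest mitochondrial share, gave 5881 higher and 5800 lower. The replicate numbers are shared by number only: same-numbered treated libraries deviated with r of -0.26, -0.12 and 0.14 across genes. With the replicate number as a block 9688 genes were called (5309 higher and 4379 lower), 6720 in DMSO and 2913 in the difference.

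Of genes that did not pass, CDK1 (0.0095) and B2M (0.0297) changed sign with library totals, POLR2A (-0.0469) and B2M (0.0425) with the GC trend removed, and POLR2A without replicate 2 of the treated Cas9 or replicate 3 of the treated 17PKO group, its range over the libraries left out being -0.0851 to 0.166. The cause was not tested. Depth limits genes near 3 counts per library.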
